A study of Mus musculus with 6 samples.

Results

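The genes described here encode the proteins of the cytosolic ribosome, followed by RNA-seq in whole mouse kidneys at E13.5. They were chosen by gene symbol alone, as Rpl or Rps with a number and at most a closing a, l or x, together with Rplp0 to Rplp2 and Rpsa, which gave 81 of the 22394 genes in the table. Of these, 49 belong to the large subunit (Rpl and Rplp) and 32 to the small subunit (Rps and Rpsa). GENCODE annotates 78 as protein-coding and 3 (Rpl6l, Rpl32l and Rps4l) as processed pseudogenes. In all, 80 passed the filter on low values, and Rpl3l, the large-subunit paralog known from striated muscle, did not.

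The mutant group held the kidneys of 3 Foxd1Cre;Ptch1 (flox/-) embryos, and the control group held those of 3 Ptch1 (flox/+) embryos, which the study design calls littermates and whose genotype names no Cre. Foxd1Cre places Cre recombinase under the control of Foxd1, a gene active in the progenitors of the renal stroma, whereas Ptch1 encodes the Hedgehog receptor that holds the pathway off. Every embryo carried 1 floxed Ptch1 allele, the mutants carried a null allele beside it in all cells, and the groups therefore also differed in Cre and in Ptch1 dosage outside the Foxd1 lineage. Per the study design, kidneys were taken as pairs. Because whole kidneys were used, fewer cells of a type and less RNA per cell cannot be told apart in any value below.

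A cytosolic ribosome joins a small subunit, which decodes the mRNA, to a large subunit, which forms the peptide bond, and each ribosomal protein is needed in about the same number of molecules as the others. Most of their mRNAs begin with a C followed by an unbroken run of pyrimidines, the 5′ terminal oligopyrimidine (TOP) tract, through which the mTOR pathway controls their translation. In the developing kidney, as in other growing tissues, these mRNAs are among the most abundant of the cell.

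The TOP tract is the feature that ties these genes to one control point, so the starts of 6 of them are shown first, each as the 30 bases before the annotated start and the first 20 bases of the transcript, 5′ to 3′, with the pyrimidine run that opens the transcript in capitals. The sequences are RefSeq's, on build GRCm38.p6. Rps6, the small-subunit protein phosphorylated by S6 kinase, starts on the minus strand of chromosome 4 and the window is chr4:86857348-86857397. Rps18 is at chr17:33955646-33955695 (minus strand), Rpl38 at chr11:114668550-114668599 (plus strand) and Rpl15 at chr14:18270967-18271016 (minus strand). For Rplp0, at chr5:115559437-115559486 (plus strand), and Rpl26, at chr11:68901536-68901585 (plus strand), the annotated start is not on such a run and no base is in capitals.
Rps6: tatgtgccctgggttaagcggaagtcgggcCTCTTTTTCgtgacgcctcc
Rps18: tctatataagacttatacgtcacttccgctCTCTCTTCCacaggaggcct
Rpl38: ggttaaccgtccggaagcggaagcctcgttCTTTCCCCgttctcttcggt
Rpl15: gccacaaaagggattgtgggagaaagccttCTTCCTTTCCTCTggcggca
Rplp0: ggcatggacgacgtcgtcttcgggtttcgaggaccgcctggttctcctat
Rpl26: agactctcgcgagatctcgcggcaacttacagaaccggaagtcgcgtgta
The run is 9 bases long in Rps6 and Rps18, 8 bases in Rpl38 and 13 bases in Rpl15.

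RefSeq starts were on hand for 59 of the 81 genes, with 71 starts in all. A start on C followed by at least 4 more pyrimidines was found at 14 of the 71 (19.7%), against 2.47% of the 32780 starts of all other genes. A run of 8 or more pyrimidines anywhere within 20 bases of the start was found at 43.7% of the ribosomal protein gene starts and at 16.0% of the others. The letters CCGGAAG, searched on both strands over the 300-base promoter window, were in 35.2% of the ribosomal protein gene promoters and in 8.80% of the others. For AAGATGGC, which was searched in the same way and can share 3 bases with the end of CCGGAAG, the shares were 9.86% and 2.73%, and for TATAAA they were 9.86% and 13.6%. These matches describe the annotated windows only. In the comparison of the kidneys, the median log2 fold change (mutant over control) was 0.09 over the 14 genes with such a C start. It was 0.07 over the 44 tested genes with annotated starts but no such C start. This split follows the annotated first base and does not sort the mRNAs by their TOP tracts. Rpl27a, whose annotated start opens a run of 16 pyrimidines but is not a C, fell in the second group.

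The libraries held 21015151, 13261588 and 47847925 reads in mutants 1 to 3, and 21644399, 24962204 and 25416896 reads in controls 1 to 3. Ptch1 itself, summed over the whole gene, had 23.5, 35.8 and 29.8 FPKM in the mutants, against 8.26, 7.91 and 7.60 FPKM in the controls. FPKM is reads per kilobase of a gene's exons, scaled for sequencing depth. For this scaling the deposited values used a size factor of each library that differs from its total reads. The sum includes exons that the deletion leaves, so it does not check the deletion, and Ptch1 is also a target gene of the pathway it restrains. Libraries also differed within groups. Control 2 held the highest value of 30.6% of all tested genes and only 0.367% of its reads came from mitochondrially encoded genes, against 1.21% to 1.92% in the mutants and 1.53% to 2.12% in the other controls. Xist, which is expressed from the inactive X, had 0.103, 0.206 and 6.19 FPKM in the mutants and 72.9, 0.0471 and 53.3 FPKM in the controls. The Y-linked Ddx3y had 16.2, 15.8 and 13.9 FPKM in the mutants and 0.0598, 17.8 and 0.0177 FPKM in the controls, so the sexes were not balanced between the groups and mutant 3 held transcripts of both kinds. The kidney lists were detected in every library, with Six2 and Cited1 of nephron progenitors and Foxd1 and Tcf21 of stroma among them. Skeletal muscle markers were lower in the mutants (4 of 4 called by limma, 2 to 4 over its alternative settings, and 4 in the authors' deposited table), with a summed level of 3.67 to 5.59 FPKM in the mutants and 23.0 to 41.0 FPKM in the controls. The endothelial list summed to 87.6 to 136 FPKM in the mutants and 41.8 to 56.2 FPKM in the controls, and limma called 1 of its 4 genes, Emcn, higher. That count ran from 0 to 4 over limma's alternative settings, and the authors' deposited table called all 4. Limma called no gene of the nephron progenitor, ureteric, stromal, podocyte, erythroid, macrophage, neural and adrenal lists, but with library weights it called 1 each of the first 3. The authors' deposited table called 1 gene each of the nephron progenitor (Wt1, log2 fold change -0.61), ureteric (Gata3, 0.87), stromal (Pdgfra, 1.06) and adrenal (Th, 2.65) lists. The part of these differences in the results below was not tested.

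Ribosomal protein genes took 9.40%, 7.27% and 7.11% of all reads in mutants 1 to 3, against 7.29%, 7.33% and 7.68% in controls 1 to 3. Mutant 1 was above every other library, and the other mutants were just below the lowest control. The group means were 7.93 ± 1.28% in mutants and 7.43 ± 0.21% in controls (SD, n = 3 each), a difference of 0.50 percentage points that is smaller than the SD of the mutants. Without mutant 1 the difference turned to -0.24 percentage points. The reads assigned to these genes held 1.35, 1.37 and 1.32 large-subunit reads for each small-subunit read in the mutants and 1.41, 1.45 and 1.30 in the controls. These ranges overlap. The ratio leaves out reads on near-identical copies, described below. Rps2, for example, took 43.4%, 36.0% and 69.0% of the reads of the gene with its copies in the mutants. In the controls it took 43.3%, 24.5% and 71.5%. The part of the copies in the ratio was not tested.

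**Figure D1:**
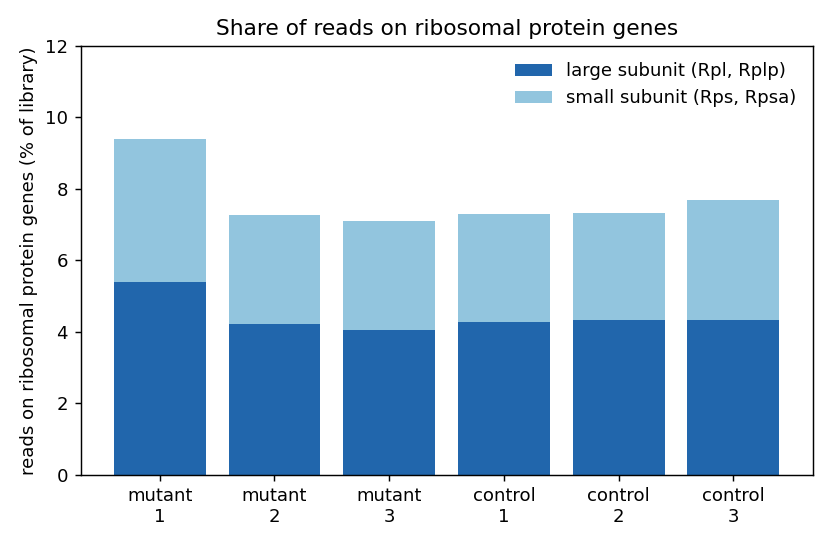
Percent of each library's reads that fell on ribosomal protein genes (y axis), with the large-subunit part below and the small-subunit part above, for 3 mutant and 3 control libraries (x axis). Mutant 1 stands at 9.40% and the other 5 libraries lie between 7.11% and 7.68%.

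No ribosomal protein gene was called different between mutant and control kidneys. With limma on log2(normalized count + 1) and Benjamini-Hochberg adjustment over all genes, 0 of 80 passed an adjusted p of 0.05, where 52 of 16933 genes did (0.307%). The members called were 0 higher and 0 lower, against 0.219% and 0.0886% of all genes. The lowest adjusted p was 0.346, for Rpl26. At an unadjusted p under 0.05 there was 1 ribosomal protein gene, again Rpl26, against 9.63% of all genes. The authors' deposited table, made with DESeq2, also had 0 of the 80 at an adjusted p under 0.05, where 4.61% of all genes with an adjusted p were called.

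The 95% interval of the log2 fold change lay inside a 2-fold change in either direction for 76 of the 80 genes, and the median standard error was 0.18. The exceptions were Rpl26, Rpl32l, Rpl35a and Rps2. For 75 genes the estimate itself was under 0.25 in size, and the remaining ones were Rpl26, Rpl9, Rps18, Rpl6l and Rpl32l. Mutant and control values did not separate for any ribosomal protein gene (0 of 80 without overlap), whereas 16.7% of all tested genes had groups that did not overlap (7.57% with the mutants above and 9.09% with the mutants below the controls). A p that misses the threshold does not show that the levels are equal, but at these intervals a 2-fold difference would lie outside the range for most of the genes.

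**Figure D2:**
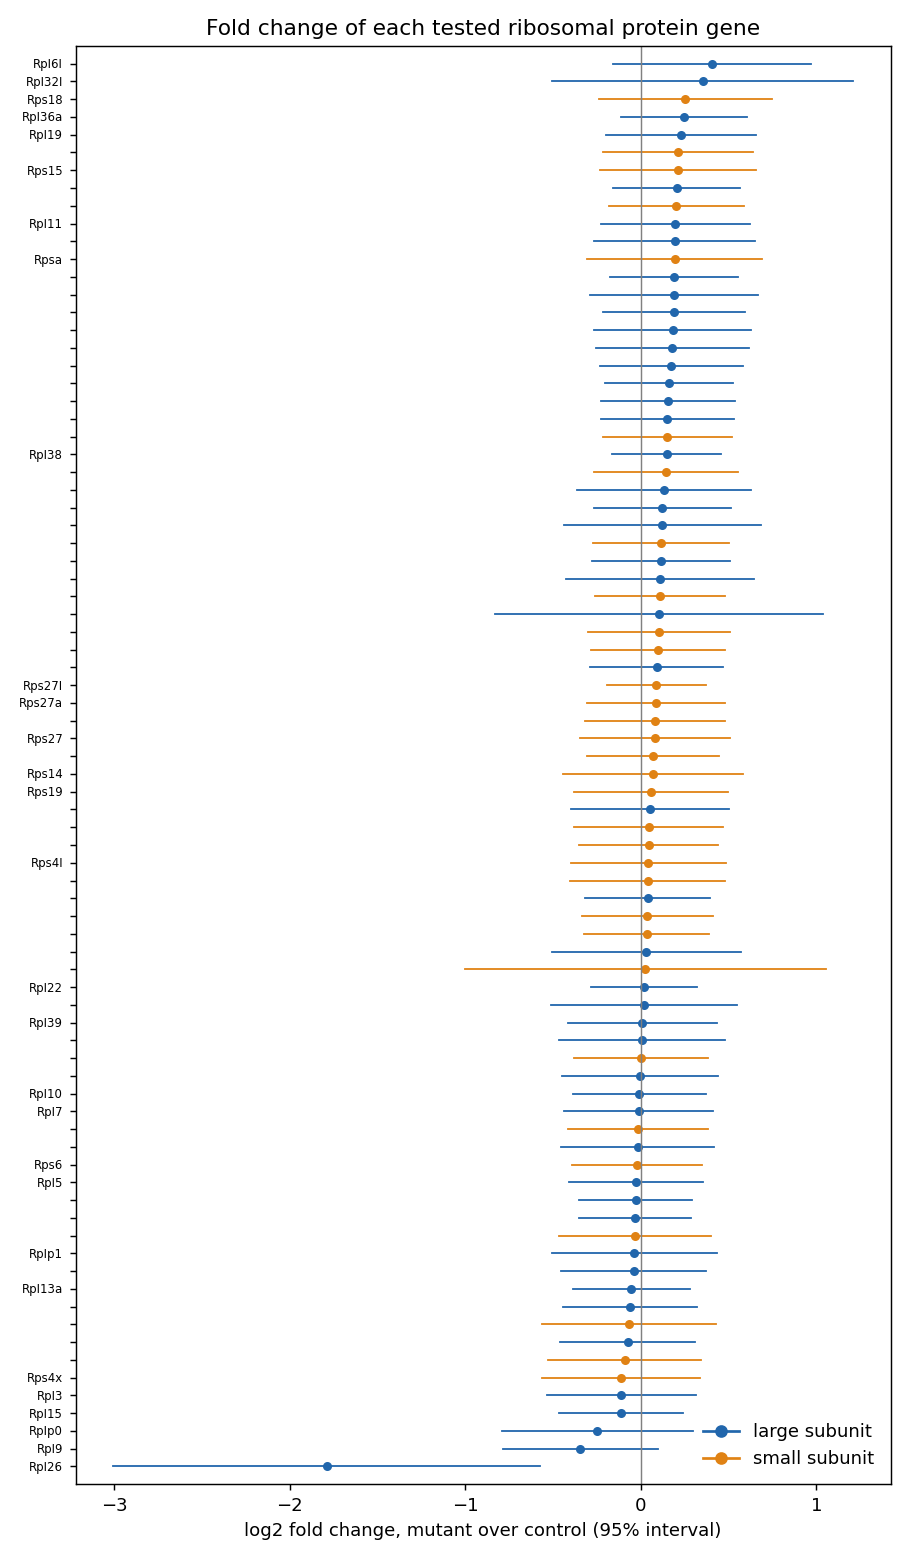
Log2 fold change of mutant over control kidneys (x axis) with its 95% interval from limma, 1 row for each of the 80 tested genes with the genes chosen by the naming rule labelled, large subunit in blue and small subunit in orange. All intervals but that of Rpl26 cross 0, and Rpl26 stands apart at -1.79.

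Of the 80 genes, 57 had a positive estimate (49.1% of all tested genes did), and the median log2 fold change was 0.07, against -0.01 over all genes. Both subunits had the same median of 0.07, with 31 of 48 large-subunit and 26 of 32 small-subunit genes positive. This direction rested on mutant 1. It was the highest of the 6 libraries for 61 of the 80 genes, where it was the highest for 19.8% of all tested genes, and it was the lowest for 0 of them. The median gene lay 0.26 above its own 6-library mean on the log2 scale in mutant 1. In mutants 2 and 3 it lay at -0.06 and -0.10, and in controls 1 to 3 at -0.04, -0.11 and 0.03. Without mutant 1, 30 of 80 genes were positive and the median was -0.05.

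**Figure D3:**
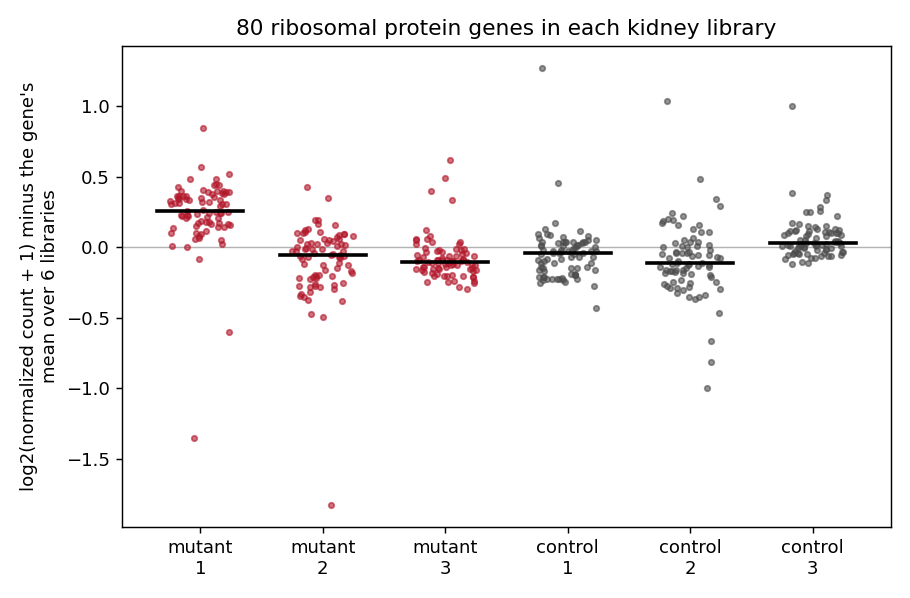
Each point is 1 of the 80 tested genes in 1 library (x axis), as log2(normalized count + 1) minus that gene's mean over the 6 libraries (y axis), with a black bar at the median. The bar of mutant 1 stands at 0.26, and those of the other 5 libraries lie between -0.11 and 0.03.

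The shift of mutant 1 was uneven across the genes. Over the 77 tested protein-coding members, the 26 with the shortest coding sequences (78 to 399 bases) had a median deviation of 0.34 in mutant 1. The 25 in the middle (408 to 555 bases) also had 0.34, and the 26 with the longest (567 to 1260 bases) had 0.15. The shortest and the middle group each included 24 genes that were highest in mutant 1, and the longest group 11. Spearman's rho between coding length and deviation was -0.47 in mutant 1, 0.11 in mutant 2 and -0.25 in mutant 3, against -0.46, 0.36 and 0.35 in controls 1 to 3. The sign thus differed among libraries of the same group, and these correlations over 77 genes share the libraries and their depth.

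The acidic stalk of the large subunit, which recruits elongation factors, is built on Rplp0. It had 1704, 1239 and 1228 FPKM in the mutants, against 1360, 2098 and 1516 FPKM in the controls. Control 2 was the highest and the groups overlapped (log2 fold change -0.25 with SE 0.24 and limma adjusted p = 0.702). Rplp1, which binds to it, reached 3910, 2533 and 2809 FPKM in the mutants and 3156, 2909 and 3271 FPKM in the controls. Here mutant 1 was the highest and mutant 2 the lowest (log2 fold change -0.04).

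Rpl5 and Rpl11 travel with the 5S rRNA and, when ribosome assembly fails, bind Mdm2 and so release p53. Rpl5 had 706, 608 and 562 FPKM in the mutants, against 586, 645 and 673 FPKM in the controls. Rpl11 had 1677, 1370 and 1212 FPKM in the mutants and 1299, 1068 and 1329 FPKM in the controls. Neither separated the groups, and the log2 fold changes were -0.03 (95% interval -0.41 to 0.36) and 0.20 (-0.23 to 0.62). In the p53 list, 0 of 15 genes were called by limma, as in the authors' deposited table, and the median in the limma fit was -0.08. There Aen, a p53-induced nuclease, had -0.36 and Bax, the pro-apoptotic pore former, had 0.16 on the log2 scale.

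Among genes whose loss is known to disturb particular tissues, Rps19 (mutated in human Diamond-Blackfan anaemia) had 391, 242 and 295 FPKM in the mutants and 299, 276 and 300 FPKM in the controls. Its controls agreed closely and its mutants lay on both sides of them (log2 fold change 0.06, 95% interval -0.38 to 0.50). Rpl38, whose loss alters the axial skeleton of the Tail-short mouse, had 615, 591 and 476 FPKM in the mutants, against 532, 471 and 508 FPKM in the controls. Mutants 1 and 2 were above all controls and mutant 3 was among them (log2 fold change 0.15 with SE 0.14 and limma adjusted p = 0.687). Rps6 had 845, 826 and 684 FPKM in the mutants and 704, 876 and 807 FPKM in the controls, with a log2 fold change of -0.02.

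Rpsa, the small-subunit protein also known as a laminin receptor, had 1477, 1430 and 1389 FPKM in the mutants, against 1124, 1097 and 1594 FPKM in the controls. Control 3 was the highest of all 6 libraries (log2 fold change 0.19, SE 0.22). This order counts only the reads assigned to Rpsa itself and not those on its near-identical copies, described below. Of the reads of the gene with its copies, Rpsa took 84.0%, 98.7% and 96.5% in the mutants and 84.3%, 83.7% and 99.1% in the controls. Rps27a, which is made as a fusion to ubiquitin, had 1302, 1223 and 1043 FPKM in the mutants and 970, 1155 and 1238 FPKM in the controls (log2 fold change 0.09).

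Rplp0, Rps18 and Rpl13a are often used to scale other transcripts in qPCR. Rpl13a was the steadiest of the 3, at 625, 551 and 488 FPKM in the mutants and 547, 563 and 610 FPKM in the controls. Its log2 fold change was -0.05, with a 95% interval of -0.39 to 0.28, and the spread within groups was 0.14 on the log2 scale. Rps18 had 1406, 988 and 1172 FPKM in the mutants, against 1049, 779 and 1172 FPKM in the controls, with mutant 1 the highest and control 2 the lowest (log2 fold change 0.25, 95% interval -0.24 to 0.75). Rps18 and Rplp0 had estimates of opposite sign, 0.25 and -0.25, and neither passed the test.

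The largest negative estimate after Rpl26 was that of Rpl9, a large-subunit protein, with 348, 276 and 273 FPKM in the mutants and 300, 424 and 422 FPKM in the controls. Control 1 lay among the mutants (log2 fold change -0.34 with SE 0.19 and limma adjusted p = 0.580). In the authors' deposited table it had the lowest adjusted p of the 80 genes, 0.0568, with a log2 fold change of -0.52. After Rplp0 came Rpl15 and Rpl3, the protein beside the peptidyl transferase centre, with -0.11 each. At the other end, Rpl36a had 850, 710 and 620 FPKM in the mutants and 653, 559 and 613 FPKM in the controls (log2 fold change 0.25, limma adjusted p = 0.610). Rpl19 had 2327, 2079 and 1907 FPKM in the mutants and 2032, 1502 and 1872 FPKM in the controls (log2 fold change 0.23). In both, mutant 1 was the highest and control 2 the lowest, and the groups overlapped. The estimates of Rpl6l and Rpl32l, 0.41 and 0.35, rest on low pseudogene levels of at most 11.2 FPKM in any library.

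Levels spanned a wide range between genes and kept their order between libraries. Over the 77 tested protein-coding genes the mean FPKM ran from 96.8 (Rpl35a) to 3098 (Rplp1), with a median of 909 and quartiles of 555 and 1155. The Spearman correlation between libraries across these genes was 0.893 to 0.984. Of the 100 genes with the highest mean FPKM in the table, 54 were ribosomal protein genes. The highest were Rplp1 and Rps14, whose neighbouring means lay within the spread of their libraries. Rps14, a protein of the small-subunit platform, had 3987, 2656 and 2797 FPKM in the mutants and 2796, 2692 and 3395 FPKM in the controls. Rps15, the next, had 3105, 2165 and 2208 FPKM in the mutants and 2241, 1948 and 2193 FPKM in the controls. Part of the range lies in the lengths used: the lengths implied by the deposited values correlated with the summed length of all annotated exons (Pearson's r = 0.914 over 81 genes) more than with the length of the main transcript (0.641).

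Several ribosomal proteins have a second gene, in some cases one of restricted use, and none of these was called by limma or in the authors' deposited table. Rpl3l had 0.133, 0.0544 and 0 FPKM in the mutants and 0.0333, 0.0290 and 0.0888 FPKM in the controls, while its main copy Rpl3 had 625, 605 and 503 FPKM in the mutants and 512, 706 and 664 FPKM in the controls. Rps27l, a p53-inducible paralog of Rps27, had 258, 239 and 214 FPKM in the mutants, against 237, 203 and 228 FPKM in the controls. The log2 fold changes of Rps27l and Rps27 were 0.09 and 0.08. Rpl22l1 had 113, 119 and 93.4 FPKM in the mutants and 102, 86.3 and 97.3 FPKM in the controls, with a log2 fold change of 0.18 beside 0.02 for Rpl22. Rpl7l1, a relative of Rpl7 that acts in ribosome assembly, had 69.8, 68.9 and 65.1 FPKM in the mutants and 72.7, 93.0 and 84.1 FPKM in the controls. Its groups did not overlap (log2 fold change -0.29, limma adjusted p = 0.519), and Rpl7 was at -0.01. Rpl36al was at -0.25 beside 0.25 for Rpl36a, and neither passed the test. Of the X-linked genes Rps4x, Rpl10, Rpl36a and Rpl39, the log2 fold changes ran from -0.11 to 0.25, and the transcribed pseudogene Rps4l was at 0.04.

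The genes are spread over 19 chromosomes, with at most 14 on 1 of them (chromosome 7), and 3 pairs lie within 100 kb of each other.

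Ribosomal protein mRNAs have been copied into the genome many times, and a read from a gene can match such a copy equally well. In GENCODE M21 (GRCm38, the same assembly as mm10), 476 genes of the table matched the coding sequence of 1 of 73 ribosomal protein genes at 95% identity or more over at least 80% of its length, and 464 of them are annotated as pseudogenes. Most took few reads: 398 of the 476 averaged under 100 normalized counts (reads divided by the library's size factor) and 12 averaged at least 1000. For 17 of the 80 tested genes, less than 95% of the reads of the gene and its copies were assigned to the gene itself in at least 1 library. The treatment of reads that match several places was not given in the sources used here.

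Rpl26, a large-subunit protein near the exit tunnel, split its reads with a copy very unequally between libraries, and the cause was not tested. It lies on chromosome 11 at 68901583 to 68906989, and its copy Gm15772, a processed pseudogene, lies on chromosome 5 at 3236431 to 3236868. Their coding sequences differ at 2 of 438 bases (99.5% identity). Rpl26 had 3732, 2686 and 13407 normalized counts in the mutants, against 23025, 19540 and 12333 in the controls. Gm15772 had 16737, 12855 and 5527 normalized counts in the mutants and 226, 118 and 6228 in the controls. The copy was high where Rpl26 was low, and mutant 3 and control 3 were alike in both. On the log2 scale Rpl26 stood at -1.79 (SE 0.53 and limma adjusted p = 0.346) and Gm15772 stood at 4.26 (SE 1.26 and adjusted p = 0.344 in the same limma fit). Rpl26 took 18.1%, 17.1% and 70.4% of the reads of the gene with its 5 copies in the mutants and 98.6%, 99.1% and 66.2% in the controls. Mutant 3 decided the call of Rpl26: without it the log2 fold change was -2.48 and the limma adjusted p was 0.0486, and over the other alternatives the adjusted p ran from 0.276 to 0.809.

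With the copies added to the gene, Rpl26 had 20646, 15686 and 19036 normalized counts in the mutants and 23345, 19714 and 18641 in the controls. The groups overlapped and the log2 fold change was -0.16, with a 95% interval of -0.54 to 0.22 (limma adjusted p = 0.726). This sum was chosen after the values of the pair had been seen. With copies added to every ribosomal protein gene, 0 of 80 were called and 0 had an unadjusted p under 0.05, where 0.313% and 9.69% of all genes did. The lowest estimate was then the -0.34 of Rpl9.

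Windows of 60 coding bases of 4 genes and their copies, from GENCODE M21 transcripts on GRCm38, show how alike the sequences are. Capitals mark the bases that differ, counted from 1 at the first base of the gene's coding sequence. The substitution in the Rpl26 window (bases 147 to 206) is C177T, those in the Rps2 window (419 to 478) are C444T and C453A, those in the Rpsa window (185 to 244) are T210C and C219T, and those in the Rplp0 window (389 to 448) are A390G, A393G and A447T, with the gene's base first and the copy's last.
Rpl26: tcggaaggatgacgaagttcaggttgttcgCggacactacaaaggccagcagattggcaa
Gm15772: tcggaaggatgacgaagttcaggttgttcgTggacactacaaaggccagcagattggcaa
Rps2: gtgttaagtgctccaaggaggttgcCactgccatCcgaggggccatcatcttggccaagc
Rps2-ps13: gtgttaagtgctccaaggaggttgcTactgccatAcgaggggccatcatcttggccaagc
Rpsa: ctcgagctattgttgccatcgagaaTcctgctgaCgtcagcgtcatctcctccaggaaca
Rpsa-ps10: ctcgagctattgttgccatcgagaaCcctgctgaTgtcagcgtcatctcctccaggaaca
Rplp0: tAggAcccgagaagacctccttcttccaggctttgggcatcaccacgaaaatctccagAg
Gm8730: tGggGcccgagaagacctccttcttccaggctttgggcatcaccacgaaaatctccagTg
The whole coding sequences differ at 7 bases between Rps2 and Rps2-ps13, 6 between Rpsa and Rpsa-ps10, and 12 between Rplp0 and Gm8730.

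The copies of the other 3 genes also took very unequal shares in libraries of the same genotype (these genes and copies were chosen after their values were seen). Rps2, a small-subunit protein at the mRNA entry, had 18859, 14180 and 30754 normalized counts in the mutants, against 17109, 11367 and 39970 in the controls. Its copy Rps2-ps13, on the X chromosome, had 23678, 24355 and 13181 in the mutants and 21572, 34482 and 15257 in the controls. Rps2 was highest in mutant 3 and control 3, where the copy was lowest. The standard error of its log2 fold change was 0.45 for the gene alone and 0.20 with its 24 copies added, and the estimates were 0.03 and -0.14. Rpsa-ps10, on chromosome 3, had 12354, 381 and 1924 normalized counts in the mutants and 9328, 9560 and 344 in the controls. Rpsa itself held 84.0%, 98.7% and 96.5% of the family's reads in the mutants, against 84.3%, 83.7% and 99.1% in the controls. Gm8730, on chromosome 8, had 274, 3764 and 3065 normalized counts in the mutants and 199, 220 and 3623 in the controls, next to at least 39745 for Rplp0. Among these copies high and low libraries were found in both groups. Rpl35a, a large-subunit protein, varied nearly as much, with 4048, 8260 and 7737 normalized counts in the mutants and 8420, 3081 and 8018 in the controls. In its case the gene held 90.2% or more of the family's reads in every library, and mutant 1 and control 2 were low in both the gene and the sum.

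**Figure D4:**
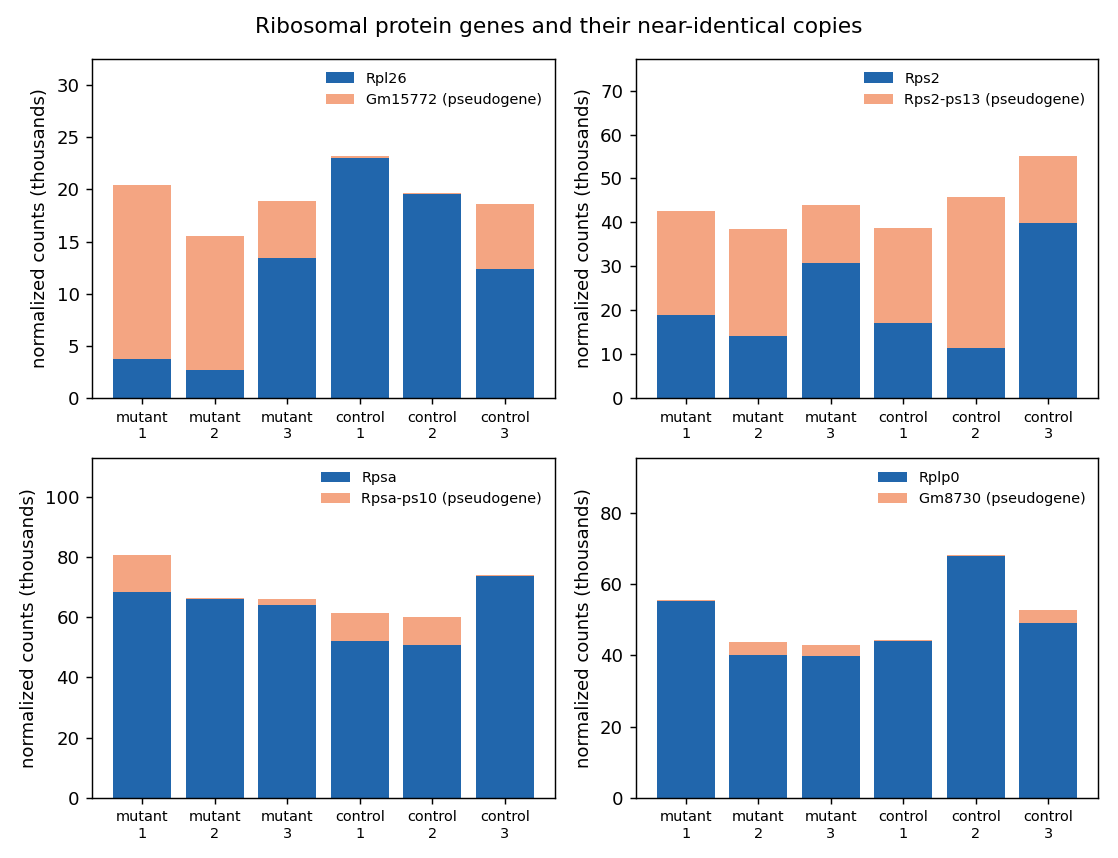
Normalized counts divided by 1000 (y axis) of 4 ribosomal protein genes (blue) and of their most abundant near-identical pseudogene (orange, stacked on top) in each mutant and control library (x axis). For Rpl26 and Rps2 the division between gene and copy changes more from library to library than the sum does.

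Transcripts listed as ribosomal protein pseudogenes by symbol had mostly positive estimates. Of 107 tested, 91 were positive with a median log2 fold change of 0.35, against -0.01 over all genes, and limma called 0. Many of these rows were low. With at least 100 normalized counts in 3 libraries, 22 remained, of which 16 were positive, and the median was 0.18. Most were also among the near-identical copies described above. With copies added to their genes, 10 were left as rows of their own, of which 8 were positive, with a median of 0.39. The authors' deposited table called 1, Rpl3-ps1, with log2 fold change -0.99 and adjusted p = 0.000985. The mean of the list relative to the control mean was 0.74, 0.21 and 0.12 in mutants 1 to 3, against 0.30, -0.26 and -0.04 in controls 1 to 3 on the log2 scale. Mutant 1 was the highest, and control 1 lay above the other mutants. Without mutant 1 the median was 0.13, and without control 2 it was 0.22.

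The lists of genes that act around the ribosome had medians on both sides of that of the ribosomal protein genes, and limma called none of their genes. With library weights limma called 1 of the regulators. The authors' deposited table, which called 4.61% of all genes, called 1 of 39 biogenesis factors, 2 of 16 other TOP mRNAs, 2 of 22 initiation factors, 0 of 19 regulators, 2 of 8 snoRNA host genes, 3 of 12 mitochondrially encoded genes and 1 of 78 mitochondrial ribosomal proteins. Ribosome biogenesis factors, which process rRNA and assemble the subunits, had negative estimates in 37 of 39 cases, with a median log2 fold change of -0.28. Of the 39, 18 had an unadjusted p under 0.05 (9.63% of all genes), and 22 had mutant values wholly below the control values (9.09% of all genes). The mean of the list relative to the control mean was -0.33, -0.16 and -0.24 in the mutants, against -0.05, -0.01 and 0.06 in the controls on the log2 scale, so all mutants lay below all controls. The median stayed between -0.32 and -0.21 when any 1 library was left out. The number with an unadjusted p under 0.05 was 3 without mutant 1, 4 without mutant 3 and 4 without control 3. It was 9 with limma-voom, 10 with scaling to total reads and 25 with library weights. With those weights limma called 380 of all genes after adjustment, against 52 in the main fit. The shares of all genes at an unadjusted p under 0.05 are not given for these settings.

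Utp4, part of the small-subunit processome, had 17.4, 17.4 and 19.9 FPKM in the mutants, against 21.3, 28.7 and 25.8 FPKM in the controls (log2 fold change -0.46 with SE 0.14 and limma adjusted p = 0.363). Heatr1, another processome protein, had 7.92, 10.4 and 8.93 FPKM in the mutants and 11.3, 12.1 and 11.6 FPKM in the controls (log2 fold change -0.37). Polr1b, the second largest subunit of RNA polymerase I, had 11.0, 13.0 and 12.9 FPKM in the mutants and 15.4, 17.1 and 14.8 FPKM in the controls (log2 fold change -0.36). Dkc1, the pseudouridine synthase of box H/ACA particles, had 46.1, 52.4 and 48.0 FPKM in the mutants and 66.3, 63.5 and 55.5 FPKM in the controls (log2 fold change -0.34). In all 4, every mutant was below every control, and none passed the limma test after adjustment. In the authors' deposited table Utp4 passed, with log2 fold change -0.58 and adjusted p = 0.0460, and the other 3 did not.

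Translation factors leaned the same way by less. Of 16 other mRNAs known to carry a TOP tract, 13 had negative estimates with a median of -0.20, and 0 had an unadjusted p under 0.05 in the limma fit. Without control 1 that number was 4, and without control 2 the median was -0.11. In 1 of the 16 the groups did not overlap, with the mutants above the controls (7.57% of all tested genes). This was Tpt1, with 2201, 1722 and 1725 FPKM in the mutants and 1549, 1634 and 1686 FPKM in the controls. Eef2, the translocase of elongation, had 573, 594 and 625 FPKM in the mutants and 599, 1087 and 791 FPKM in the controls (log2 fold change -0.42, SE 0.24). Its control 1 lay among the mutants. In the authors' deposited table Eef2 had log2 fold change -0.66 and adjusted p = 0.0106. Of 22 initiation factors, 18 were negative with a median of -0.20, and Eif2s1, which carries the initiator tRNA to the ribosome as part of eIF2, had 27.6, 33.2 and 30.4 FPKM in the mutants and 32.3, 51.5 and 42.5 FPKM in the controls (log2 fold change -0.45, limma adjusted p = 0.486). In the authors' deposited table Eif2s1 had log2 fold change -0.64 and adjusted p = 0.0166. Among regulators, 15 of 19 were negative with a median of -0.13, which was -0.08 both without mutant 1 and with library weights. Mycn, a Myc family transcription factor of nephron progenitors and other embryonic cells, had 30.7, 34.97 and 36.8 FPKM in the mutants, against 54.3, 39.1 and 51.0 FPKM in the controls. All mutants were below all controls (log2 fold change -0.49 with SE 0.15 and limma adjusted p = 0.375). Mtor, the kinase that controls TOP mRNAs, had 6.29, 6.91 and 7.63 FPKM in the mutants and 8.201, 9.20 and 8.34 FPKM in the controls (log2 fold change -0.31).

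The noncoding snoRNA host genes, whose transcripts also carry TOP tracts, had positive estimates in 8 of 8 cases with a median of 0.31 and 0 calls by limma. Gas5 had 146, 149 and 131 FPKM in the mutants and 164, 80.8 and 112 FPKM in the controls (log2 fold change 0.31, SE 0.23). Control 1 was the highest and control 2 the lowest, and without control 2 the median of the list was 0.05. Without control 1 it was 0.57, and 8 of 8 then had an unadjusted p under 0.05 in the limma fit. In the authors' deposited table Gas5 had log2 fold change 0.59 and adjusted p = 0.0451. Mitochondrially encoded genes rested on control 2 as well, with 12 of 12 positive and a median of 0.68, against a median of -0.08 without control 2 and 1.23 without control 1. The 78 proteins of the mitochondrial ribosome, which share a task but no gene with the cytosolic one, had a median of -0.05, with 30 positive and 0 called by limma. Over left-out libraries their median ran from -0.12 (without mutant 1) to -0.02 (without control 3).

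**Figure D5:**
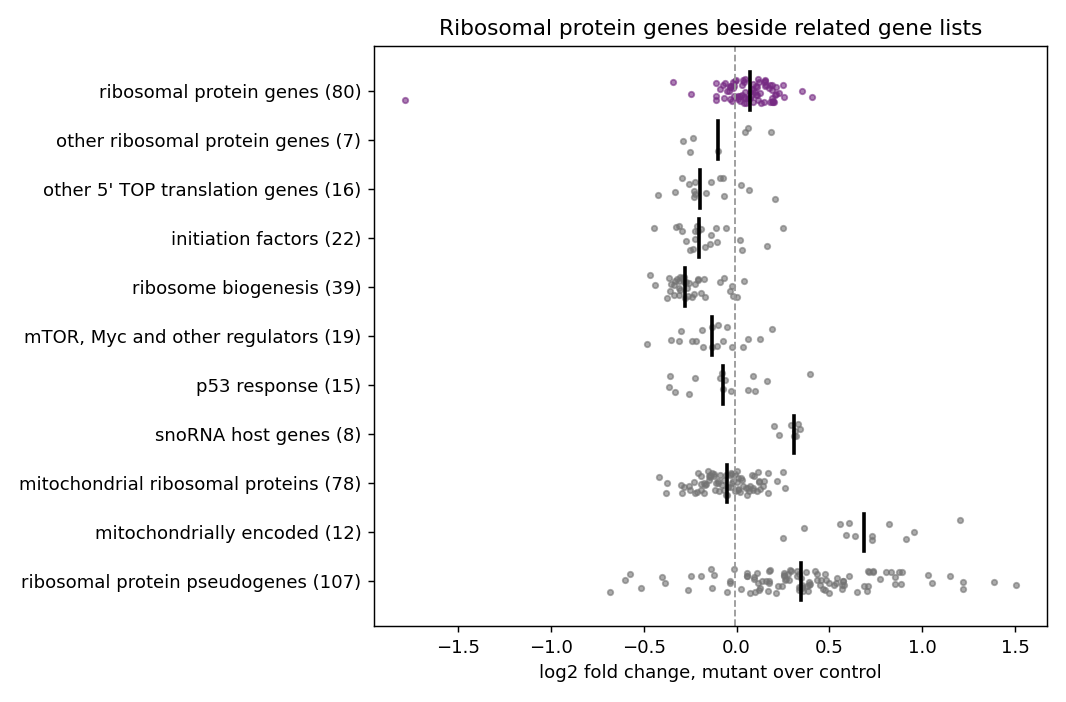
Log2 fold change of mutant over control kidneys (x axis) for each tested gene of 11 lists (y axis, number tested in brackets), with a black bar at each list's median and a dashed line at the median of all genes (-0.01). The ribosomal protein genes lie close to the dashed line with a median of 0.07, and the ribosome biogenesis factors lie to its left at -0.28.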

How the data were processed

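The ribosomal protein genes and the other lists were chosen with earlier results of these data known. Per the submitters' processing notes, DESeq2, HTSeq 0.6.1p2, STAR 2.6.0c and Trim Galore were used with build mm10, with no role or order given. Strandedness was not given in the sources used here. The deposited table held FPKM per library, a unit taken from the values. It also held the authors' mean normalized signal, log2 fold change with its standard error, test score, p-value and adjusted p-value, per the file headers.

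Each gene's deposited FPKM was multiplied by its mean signal over its mean FPKM, which gave normalized counts. Of 134364 values, 100% were whole reads to within 1e-06 of a read, with 13261588 to 47847925 reads per library. The deposited table held no gene under 10 reads in total. The design had been written for a value on its deposited scale or for normalized counts where whole reads could be recovered, and the second applied.

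Limma 3.58.1 (R 4.3.3) with an intensity trend was fitted to log2(normalized count + 1) of 16933 genes with at least 10 normalized counts in 3 or more libraries, with no covariate, two-sided, with Benjamini-Hochberg adjustment and calls under 0.05. Fold changes on this scale understate those of low genes. The labels number the samples of a group and name no litter, so p-values measure the spread between these samples. The fit was also run on simulated counts, drawn independently for each gene and library. These held no reads shared with copies and no unbalanced sexes, so that run does not bear on either. Copies were found with BLAST 2.17.0 against GENCODE M21, each assigned to its best match. Alternatives covered the pseudocount, filter, scaling, FPKM, limma-voom, library weights, a replicate block, left-out libraries and the authors' table. Genes named were called members, the 5 largest positive and negative estimates, the highest and lowest FPKM, 10 fixed genes, paralogs, and list members with the smallest p. Copies, Ptch1, Xist, Rps2, Rpl35a and Tpt1 were named outside that rule.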

Additional observations from a re-analysis of the deposited data

How the results depend on the processing

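No setting gave a ribosomal protein gene called higher, and the number called lower was 0 in every alternative except without mutant 3, where it was 1 (Rpl26, log2 fold change -2.48, limma adjusted p = 0.0486); over left-out libraries that number ran from 0 to 1. The median log2 fold change of the genes was -0.05 with library weights and 0.05 to 0.14 elsewhere, except that leaving out mutant 1 gave -0.05, so its range over left-out libraries was -0.05 to 0.14. Leaving out each library moved the difference in read share between -0.24 and 0.90 percentage points. The deviations of same-numbered mutants and controls correlated at 0.000811, -0.0981 and 0.309 for numbers 1 to 3, so not every pair was over 0.1 and the numbers were not taken to pair the samples. A fit with the replicate block left the median at 0.07 with 0 members called. Adding copies to their genes was chosen after seeing the data.

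Of 29 named genes with a fit, 17 kept their sign in all alternatives other than left-out libraries, and 14 kept it in those too. Scaling to total reads, upper-quartile scaling and limma-voom moved the median of all genes to 0.03, 0.02 and 0.03. They turned Rpl10 to 0.028, 0.026 and 0.034, Rpl5 to 0.0096, 0.0073 and 0.014, Rpl7 to 0.023, 0.020 and 0.030 and Rps6 to 0.014, 0.012 and 0.022. Library weights turned Rpl22 to -0.082, Rpl39 to -0.077, Rps14 to -0.15, Rps19 to -0.056, Rps27 to -0.031, Rps27a to -0.049, Rps4l to -0.23 and Rpsa to -0.029. Left-out libraries gave ranges that cross 0 for Rpl10 (-0.11 to 0.087), Rpl13a (-0.14 to 0.035), Rpl22 (-0.050 to 0.067), Rpl39 (-0.18 to 0.18), Rpl5 (-0.12 to 0.048), Rpl7 (-0.13 to 0.077), Rplp1 (-0.22 to 0.093), Rps14 (-0.11 to 0.18), Rps19 (-0.12 to 0.22), Rps27 (-0.084 to 0.24), Rps27a (-0.014 to 0.18), Rps4l (-0.14 to 0.20), Rps4x (-0.25 to 0.0084) and Rps6 (-0.11 to 0.076). None of these passed the test in any setting, and the cause was not tested. The median standard error of 0.18 on the log2 scale, from 3 libraries a group, limits what could be detected.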
